A study of Mus musculus with 5 samples.

Results

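The nucleus sorts its chromosomes into an A compartment of open, gene-rich and mostly active chromatin and a B compartment of condensed, gene-poor chromatin, much of it at the nuclear lamina. In Hi-C maps the side of a region is read from the sign of the first principal component of its contacts. The regions described here were the 400-kb bins that the study lists as B in neural stem cells (NSCs) and as A in STO cells. There were 381 such bins out of 5963 listed on the autosomes. They came from 11 autosomes (1, 3, 4, 9, 10, 13, 14, 15, 16, 18 and 19), which hold 3309 of the listed bins. Chromosomes 2, 5, 6, 7, 8, 11, 12 and 17 were left out, because the listed letters are sparse or opposite there or, on chromosome 7, because A bins hold fewer genes than B bins. Within the autosomes kept, the bins were thus selected on Hi-C contacts by a rule that reads no expression value. Earlier expression results of these data were nevertheless known when these bins were taken up. How letters were judged opposite is not given here. Leaving out chromosomes with opposite letters may favour agreement between letters and expression, which was not tested. The principal component values themselves are not used here, so how near a bin lies to the change of sign is not given. A gene belonged to a bin when the midpoint of its locus fell in it, which gave 747 member genes of 25415.

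Expression was measured by polyadenylated RNA sequencing in 2 NSC libraries and 3 STO libraries. The NSCs were primary cells from embryonic mouse cortex, grown at passages 5 to 8 as a monolayer in medium with epidermal and basic fibroblast growth factors, heparin and B27. STO is a fibroblast line from SIM mouse embryos that resists thioguanine and ouabain, is often used as a feeder layer, and was grown in medium with fetal bovine serum at over 30 passages. Both are labelled C57BL/6, which for STO does not match the stated origin from SIM mice, so genetic background may differ too. Neither group carries a transgene or a drug treatment in the labels. Medium, passage, cell type and possibly genetic background differ together between the groups and cannot be told apart. The labels do not say that replicates were separate cultures, so p-values measure only the spread between these libraries, and the STO libraries come from 1 line.

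Values are fragments per kilobase of transcript and per fixed number of mapped fragments (FPKM), so a level is per length of transcript. The files give no counts, and the confidence intervals deposited with the FPKM values imply, if they cover counting error only, 15223341 to 22271895 fragments per library. All 8 NSC markers examined, among them Sox2, Nes and Fabp7, were lower in STO cells and stayed under 1 FPKM there. All 8 fibroblast markers were higher in STO cells, and one of them, Col3a1, is itself a member gene. Oligodendrocyte markers were also present in the NSC libraries, where 4 of them summed to 120.0 and 122.0 FPKM, against 0.961 to 1.14 FPKM in the STO libraries, and 4 astrocyte markers summed to 70.4 and 71.4 FPKM against 0.242 to 0.432 FPKM. Of 6 neuron markers 3 were lower in STO cells, and the sum of the 6 was 17.6 and 19.2 FPKM in NSCs and 7.84 to 8.61 FPKM in STO cells. Nearly all of the STO sum was Tubb3, at 8.57, 7.84 and 8.49 FPKM, which had no call between the groups. Markers of microglia, endothelium and germ cells stayed under 1 FPKM in every library. In such bulk libraries, fewer cells of a type and less RNA per cell cannot be told apart, and the part of differentiated cells in the results below was not tested.

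Several members with a large difference carry short known motifs just before their annotated start, and others carry none. The 6 windows shown are of 5 genes that were higher in STO cells and 1 that was lower. Each line gives the 250 bases before the transcript start in mm9, read from the genome on the strand of the gene, 5′ to 3′. Capitals mark matches to TGANTCA (the site of AP-1, the Fos and Jun factors), GGAATG (TEAD factors, partners of Yap1), TATAAA (the TATA box) or ACAAAG (SOX factors), searched on both strands.
Col3a1, chr1:45368133-45368382, plus strand: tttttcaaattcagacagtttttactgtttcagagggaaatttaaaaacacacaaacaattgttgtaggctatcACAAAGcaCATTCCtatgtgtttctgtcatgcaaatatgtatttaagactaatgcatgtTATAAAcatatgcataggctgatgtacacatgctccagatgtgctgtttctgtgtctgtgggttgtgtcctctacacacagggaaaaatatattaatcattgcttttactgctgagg
Mmp3, chr9:7445572-7445821, plus strand: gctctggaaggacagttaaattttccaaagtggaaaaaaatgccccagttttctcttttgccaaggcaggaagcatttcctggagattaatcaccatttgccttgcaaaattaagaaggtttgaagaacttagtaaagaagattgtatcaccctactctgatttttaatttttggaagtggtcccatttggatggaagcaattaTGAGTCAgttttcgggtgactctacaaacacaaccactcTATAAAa
Ptgs2, chr1:151946911-151947160, plus strand: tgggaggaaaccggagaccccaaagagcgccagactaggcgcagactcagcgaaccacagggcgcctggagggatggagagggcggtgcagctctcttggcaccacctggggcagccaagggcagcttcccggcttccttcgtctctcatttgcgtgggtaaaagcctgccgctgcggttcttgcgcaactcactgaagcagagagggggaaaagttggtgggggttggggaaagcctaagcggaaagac
Nid1, chr13:13529619-13529868, plus strand: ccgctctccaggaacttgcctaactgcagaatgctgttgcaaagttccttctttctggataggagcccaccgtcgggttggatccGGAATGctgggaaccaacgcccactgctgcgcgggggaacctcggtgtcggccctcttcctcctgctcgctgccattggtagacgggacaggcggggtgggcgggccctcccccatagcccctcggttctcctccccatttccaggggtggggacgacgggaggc
Fas, chr19:34364899-34365148, plus strand: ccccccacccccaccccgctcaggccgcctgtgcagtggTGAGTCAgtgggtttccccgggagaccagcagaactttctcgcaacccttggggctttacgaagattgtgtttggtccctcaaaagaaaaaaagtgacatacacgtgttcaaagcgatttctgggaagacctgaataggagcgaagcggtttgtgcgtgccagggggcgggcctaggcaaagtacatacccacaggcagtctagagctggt
Enpp2, chr15:54751702-54751951, minus strand: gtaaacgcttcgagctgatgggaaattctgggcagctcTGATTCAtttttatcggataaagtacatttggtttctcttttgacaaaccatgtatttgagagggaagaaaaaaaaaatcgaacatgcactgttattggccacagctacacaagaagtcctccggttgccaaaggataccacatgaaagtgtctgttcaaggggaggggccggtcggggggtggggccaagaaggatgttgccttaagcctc
The capitals in the Col3a1 window are, from its 5′ end, a SOX, a TEAD and a TATA match. Mmp3 has an AP-1 match from 46 to 40 bases before its start and a TATA match from 7 to 2 bases before it. Fas and Enpp2 each have 1 AP-1 match, Nid1 has 1 TEAD match, and none of the 4 letter strings occurs in the window of Ptgs2. The matches in these windows did not overlap one another. The windows shown hold matches more often than those of the named genes at large. None of the 4 strings occurs in the windows of the rising genes Prl2c2, Ptx3, Casp4, Col5a2, Man1a, Cast and Amigo2. The same is true of the falling genes Lyn, Bmerb1, Bbip1, Gria4, Arhgef4, Nt5e, Tpd52l1, Sfrp2 and Tram1l1. Enpp2 is thus the only one of the 10 members with the largest fall whose window holds a match. Over the tested genes with an annotated strand, TGANTCA occurred in 19 of 228 promoters of members higher in STO cells (8.33%) and in 5 of 113 promoters of members lower there (4.42%), beside 432 of all 11595 autosomal promoters (3.73%). GGAATG stood in 7.89% of the promoters of higher members and 12.4% of those of lower members, beside 10.0% of all promoters. TATAAA stood in 7.89%, 5.31% and 5.71%, and ACAAAG in 12.3%, 15.0% and 11%, in the same order. Median GC was 59.2% over the member promoters and 61.2% over all, with a median of 14.5 and 17 CpG dinucleotides. A match is a run of letters and was not tested as a bound site.

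The 381 bins cover 152.0 Mb and form 139 runs of adjacent bins, called loci below. A single bin makes up 58 of the loci, the other 81 hold 323 bins, and the longest has 14 bins. In base composition and gene content the bins resembled B chromatin more than A chromatin. Their median GC content was 39.6% (quartiles 37.9% and 41.0%), against 43.5% in bins that are A in both cell types and 38.7% in bins that are B in both. They held 4.91 genes per Mb, against 13.0 in A bins and 5.44 in B bins, and 122 of the 381 bins held no gene midpoint. Their genes were long, with a median of 22.5 kb against 16.3 kb in A bins and 10.2 kb in B bins. On 10 of the 11 autosomes the bins listed A were richer in genes than those listed B in both cell types, as the letters imply. The choice of autosomes partly fixed this, because chromosomes with opposite letters or gene-poorer A bins were left out. Chromosome 13 was the exception, with 7.38 genes per Mb in STO A bins and 9.12 in STO B bins, so the letters there go against gene density, and its loci are read with that limit.

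The study lists letters for 3 further cell types as well. Of the 381 bins, 245 are listed B and 129 are listed A in female germline stem cells, 173 are B and 123 are A in spermatogonial stem cells, and 207 are B and 58 are A in induced pluripotent cells, with the rest unlisted. The 3 types are B together in 85 bins and A together in 22.

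Across the member genes, expression was on balance higher in STO cells, where the bins are listed A. Of the 747 genes, 390 reached a mean of 1 FPKM in either cell type and were tested. Limma on log2(FPKM + 1), with Benjamini-Hochberg adjustment over all 12293 genes tested at 0.05, called 229 of the 390 higher in STO cells (58.7%, where 41.9% of all genes tested were called higher) and 115 lower (29.5%, against 43.7%). No call was made for 46. Of 233 tested members in bins that are B in female germline stem cells, 60.9% were higher and 28.8% lower, and of 149 in bins that are A there 56.4% were higher and 28.9% lower. The median log2 difference, STO minus NSC, was 0.44 over the members, with quartiles at -0.33 and 1.59, and -0.023 over all genes tested. With a log2 difference of at least 1 also required, 144 members were higher (36.9%, against 17.1% of all) and 43 were lower (11%, against 21.3%). The other classes of bin on the same autosomes lay elsewhere. Genes in bins A in both had a median of -0.041, with 41.1% higher and 44.6% lower, and genes in bins B in both had a median of -0.098, with 42.4% higher and 46.2% lower. In the 445 bins with the converse switch, A in NSCs and B in STO cells, the median was -0.55, with 28.7% of 609 genes higher and 59.3% lower.

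**Figure D1:**
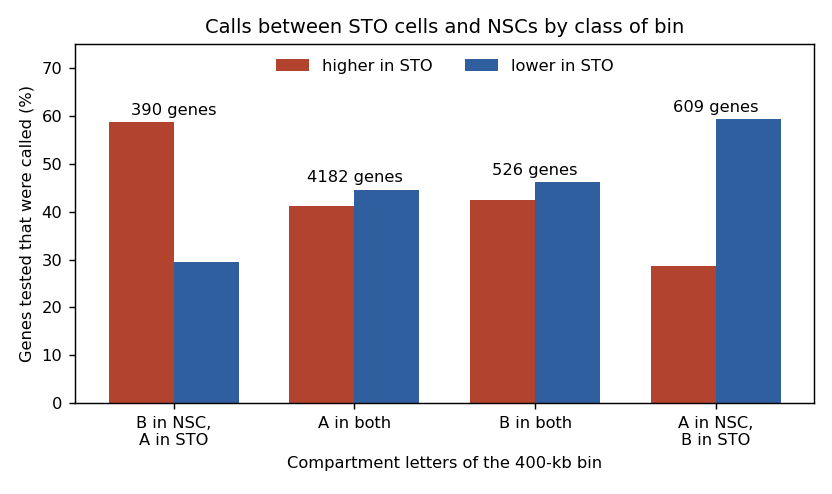
Share of tested genes called higher (red) or lower (blue) in STO cells by limma, in percent, for the 4 combinations of compartment letters, with the number of genes tested above each pair of bars. Higher calls prevail (58.7% against 29.5%) where the bins are B in NSCs and A in STO cells, and lower calls prevail (59.3% against 28.7%) where the letters are the other way round.

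The levels show the same in each library. Of the 747 member genes, 40.0% and 39.9% reached 1 FPKM in the NSC libraries and 48.3%, 48.2% and 48.7% did so in the STO libraries. Over all autosomal genes the shares were 45.7% in both NSC libraries and 43.0% to 43.2% in the STO libraries. The FPKM of the members summed to 6355 and 6399 in NSCs and to 10441, 10395 and 10760 in STO cells. All autosomal genes summed to 426574 and 430244 in NSCs and to between 371598 and 385431 in STO cells. Such a sum gives most weight to the highest genes, so it does not show how many members rose. A gene was counted as on in 1 cell type only when it reached 1 FPKM in every library of that type and stayed under 0.1 FPKM in every library of the other. By that rule 40 members were on in STO cells only (5.35%, against 1.27% of all autosomal genes) and 16 in NSCs only (2.14%, against 3.75%). The 5 with the highest level among the first were Prl2c2, Col3a1, Mmp3, Ifi202b and Casp4, and among the second Lyn, Bmerb1, Bbip1, Gria4 and Nt5e. Of the 357 members that were not tested, 177 were at 0 in every library and 180 were above 0 in at least 1. They include all 11 olfactory receptor genes and 21 microRNA genes of these bins.

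Higher calls outnumbered lower ones on 9 of the 11 autosomes. The member median lay above that of the other tested genes of the same chromosome on 10 of the 11 autosomes, and above 0 on 9. The gap was widest on chromosome 1, at a median of 1.02 over 42 genes against -0.1 for the rest. Chromosome 10 was the exception, where 13 of 33 members were higher and 17 lower, with a median of -0.44 against -0.18. On chromosome 16 the calls were even, 19 higher and 20 lower of 49. On chromosome 13, where the letters go against gene density, 34 of 52 members were higher and 10 lower. Without it 195 of 338 members were higher and 105 lower.

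**Figure D2:**
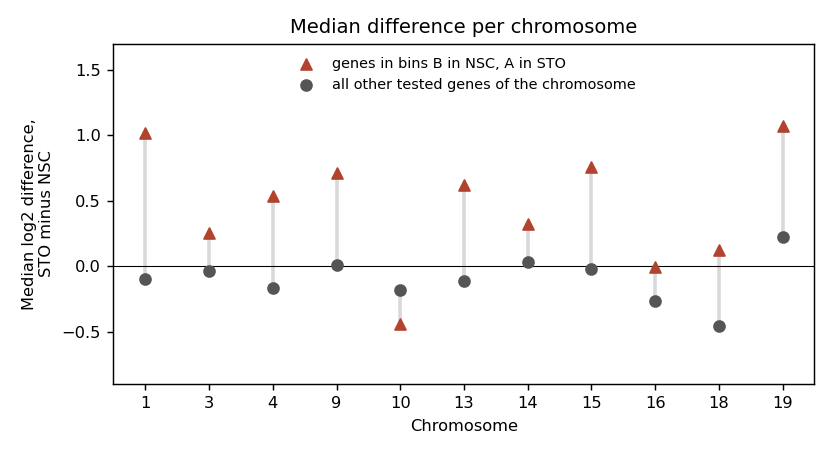
Median log2 difference (STO minus NSC, log2(FPKM + 1) scale) over the tested member genes of each of the 11 autosomes (red triangles) and over the other tested genes of that chromosome (grey circles). The member median is the higher one on every chromosome shown except 10, where it is -0.44 against -0.18.

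Within and around the loci the calls were as follows. In the bins at the edge of a run 58.1% of 277 genes were higher and 31.4% lower. In interior bins 60.2% of 113 were higher and 24.8% lower. In the neighbouring bins just outside the runs 46.8% of 444 genes were higher and 41.0% lower, with a median of 0.085. Among those, 44.7% of 313 genes were higher and 40.9% lower in bins A in both, with a median of 0.043. In the neighbouring bins B in both, 62.5% of 64 were higher and 34.4% lower, with a median of 0.41. These B bins next to a run thus lay near the member median of 0.44, unlike the bins B in both as a whole.

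Genes of the extracellular matrix were among the largest rises. Fibroblasts secrete fibrillar collagens, crosslink them with lysyl oxidase and remodel them with metalloproteinases. Col3a1, the chain of type III collagen, was listed at 0 FPKM in both NSC libraries and at 349, 339 and 330 FPKM in the STO libraries (log2 difference 8.41, SE 0.050, adjusted p = 3.5e-09 by limma with Benjamini-Hochberg adjustment, as for the adjusted p-values that follow). Col5a2, the next collagen gene on the chromosome and a chain of type V collagen, had 0.0336 and 0.18 FPKM in NSCs and 71.6, 70.3 and 71.2 FPKM in STO cells, a log2 difference of 6.03. Nid1, which encodes the basement membrane protein nidogen-1, was present in both cell types, at 3.19 and 2.92 FPKM in NSCs and 373, 402 and 377 FPKM in STO cells, 126 times the NSC mean (log2 difference 6.57, SE 0.061, limma adjusted p = 5.2e-09). For each of these genes the 2 groups of libraries stood far apart. Nid1 lies on chromosome 13, where the letters go against gene density. Of the list of matrix proteins, 5 of the 5 tested members were higher in STO cells (Nid1, Col3a1, Col5a2, Col8a1 and Ccn3), beside 68.4% of the 79 tested genes of that list in the series. The sixth member, the laminin chain gene Lama2, stayed under 0.1 FPKM in every library and was not tested.

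Of the list of matrix remodelling enzymes and protease inhibitors, 8 of 9 tested members were higher and 1 lower, beside 68.1% higher over the 72 tested genes of the list. The higher ones include Serpinb9, Serpinb9b and Serpinb1a on chromosome 13, where the letters go against gene density. The list takes in serpins as a family and is not limited to inhibitors of matrix enzymes, so these 3 are not counted as matrix genes. Lox, the lysyl oxidase gene, had 0.0844 and 0.13 FPKM in NSCs and 222, 250 and 220 FPKM in STO cells (log2 difference 7.71, SE 0.072, limma adjusted p = 5.3e-09). Mmp3, whose product stromelysin-1 cleaves matrix proteins, was listed at 0 in both NSC libraries and at 232, 218 and 235 FPKM in STO cells, a log2 difference of 7.84. Mmp16, a membrane-bound metalloproteinase gene, was the only lower one, at 7.26 and 7.33 FPKM in NSCs and 5.17, 5.38 and 5.03 FPKM in STO cells, a log2 difference of -0.42.

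Other members with a large rise were Ptx3, Ptgs2 and Ifi202b. Ptx3, which encodes a long pentraxin of innate immunity, had 0.281 and 0.196 FPKM in NSCs and 250, 248 and 255 FPKM in STO cells. Its locus overlaps that of Veph1. Ptgs2, the inducible cyclooxygenase gene of prostaglandin synthesis, had 0.378 and 0.358 FPKM in NSCs and 138, 139 and 138 FPKM in STO cells, which is 376 times the NSC mean (log2 difference 6.67, SE 0.046, limma adjusted p = 3.5e-09). Pla2g4a, the phospholipase that frees arachidonic acid for that pathway, lies in the same bin and was taken up for that reason after its values were seen. It had 2.23 and 2.32 FPKM in NSCs and 31.8, 32.2 and 33.5 FPKM in STO cells, a log2 difference of 3.35.

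The interferon-inducible p200 genes form 1 bin, chr1:175600001-176000000, in which 6 genes were higher and none lower. Ifi202b had 0.0354 and 0.0162 FPKM in NSCs and 84.2, 85.7 and 95.9 FPKM in STO cells (log2 difference 6.45, SE 0.071, limma adjusted p = 6.4e-09). Ifi204 reached 22.4, 24.1 and 24.5 FPKM in STO cells and stayed at or under 0.0554 FPKM in NSCs. These are related genes of 1 family, so fragments of any shared sequence may be split among them and the share of each is uncertain. How alike their sequences are was not measured. The Ly6 genes on chromosome 15 are likewise related, with the same limit. Ly6a, which encodes the surface antigen Sca-1, was listed at 0 in NSCs and at 57.4, 47.1 and 54.1 FPKM in STO cells, a log2 difference of 5.75.

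Prl2c2 had the largest difference of all members. It encodes proliferin, a prolactin-family hormone known from placenta and growing fibroblasts. It was listed at 0 in both NSC libraries and at 576, 616 and 643 FPKM in the STO libraries (log2 difference 9.26, SE 0.062, limma adjusted p = 3.5e-09). Its close copy Prl2c3 had 6.86, 8.04 and 8.91 FPKM in STO cells and 0 in NSCs, and sequence shared between the copies makes the split uncertain. Man1a, a Golgi mannosidase gene of N-glycan trimming, rose from 1.35 and 0.821 FPKM in NSCs to 88.8, 91.5 and 93.4 FPKM in STO cells. Cast, the gene of the calpain inhibitor calpastatin, had 0.0543 and 0.0403 FPKM in NSCs and 36.6, 39.5 and 40.3 FPKM in STO cells. Amigo2, a gene of a leucine-rich adhesion protein, had 0.189 and 0.247 FPKM against 40.9, 40.2 and 41.5 FPKM, and overlaps Pced1b. Of the genes in this paragraph, Prl2c2, Prl2c3 and Cast lie on chromosome 13, where the letters go against gene density.

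**Figure D3:**
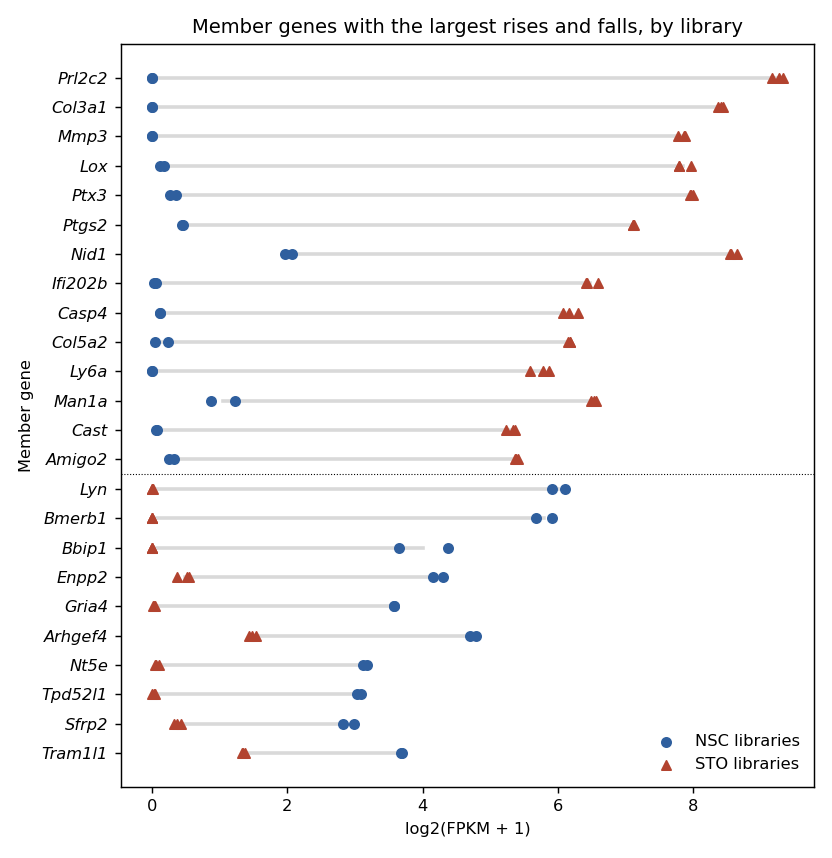
Level of the 14 member genes with the largest rise (above the dotted line) and the 10 with the largest fall in each library, as log2(FPKM + 1), with NSC libraries as blue circles, STO libraries as red triangles and a grey line between the group means. The groups do not overlap for any of these genes, which the choice of genes required, and the spread within a group is widest for Bbip1 at 11.6 and 19.7 FPKM in NSCs.

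Secreted growth factors and transcription factors of mesenchyme also lay in these bins. Of 7 tested growth factors, morphogens and their receptors and antagonists, 6 were higher in STO cells and 1 was lower, beside 52.4% higher and 42.7% lower over the 103 tested genes of the list. Inhba, the activin chain gene, was listed at 0 in NSCs and at 8.97, 9.39 and 7.32 FPKM in STO cells. Inhba and Fgf10, another of the higher genes, lie on chromosome 13, where the letters go against gene density. Gdnf, a neurotrophic factor gene, had 0.0377 and 0.102 FPKM in NSCs and 7.88, 8.01 and 7.93 FPKM in STO cells. The lower one was Sfrp2, a secreted Wnt antagonist gene, at 6.94 and 6.09 FPKM in NSCs and 0.288, 0.251 and 0.349 FPKM in STO cells (log2 difference -2.53, SE 0.067, limma adjusted p = 1.8e-07).

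All 4 tested members of the mesenchymal transcription factor list were higher, namely Snai2, Tbx18, Foxf2 and Foxc1, beside 70.1% of 67 over the whole list. Snai2, a repressor of epithelial genes, was listed at 0 in NSCs and at 15.6, 16.7 and 16.4 FPKM in STO cells, a log2 difference of 4.11. Tbx18 had 10.7, 10.6 and 9.79 FPKM in STO cells and 0.0068 and 0 FPKM in NSCs. Of 4 tested homeobox and forebrain factors, 3 were higher, among them Irx1 and Irx2, and the Notch target gene Hey2 was lower, beside 47.3% higher and 52.7% lower over 93 genes of the list. Irx1 rose from 1.48 and 1.69 FPKM to 48.4, 41.8 and 48.1 FPKM, and Irx2, in the next bin, reached 25.8, 24.8 and 24.7 FPKM. Foxf2, Foxc1, Irx1 and Irx2 all lie on chromosome 13, where the letters go against gene density.

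Ion channels and neurotransmitter receptors were split. Of 8 tested members, 5 were lower in STO cells, among them Gria4, Scn3b and Grik2, and 3 were higher, among them Htr2a and Adra2a, with a median log2 difference of -0.96. Over the whole list 82.0% of 111 tested genes were lower and 17.1% higher, with a median of -1.59, so lower calls were at least as common in the list at large. Of 4 ribosomal protein genes 3 were lower and Rps20 was higher, beside 67.5% lower and 13.0% higher over the 154 tested genes of the list. The 6 tested solute carriers split into 3 higher and 3 lower, beside 40.6% higher and 48.8% lower of 207. Zinc finger genes named Zfp counted 5 higher, 1 lower and 2 without a call, beside 38.6% higher and 39.2% lower of 332. Of 5 genes of mitosis and DNA replication 3 were higher and 2 lower, beside 55.4% higher and 31.4% lower of 175. Of 2 tested cytokine receptor genes Osmr was higher and Csf2ra lower, beside 71.2% higher and 22.0% lower over the 59 tested genes of the cytokine list. The lists of neural adhesion molecules, axon guidance genes and contractile proteins had 1 tested member each, Pcdh18, Epha7 and Acta2, all higher, beside 15.7%, 40.4% and 70.2% higher over these lists. The lists of integrins and histones had no member in these bins.

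Of the 139 loci, 59 followed the switch, in that more of their genes were called higher than lower in STO cells. Another 30 opposed it, 12 were tied, 23 held no tested gene and 15 held no gene. Of the 71 loci with at least 2 called genes, 25 had calls in 1 direction only, and in all 25 the direction was higher. Counted by bin, 45 of 98 member bins with at least 2 called genes went 1 way (45.9%), 38 of them higher and 7 lower. Over all listed bins of these autosomes 395 of 1132 did so (34.9%), 186 higher and 209 lower.

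**Figure D4:**
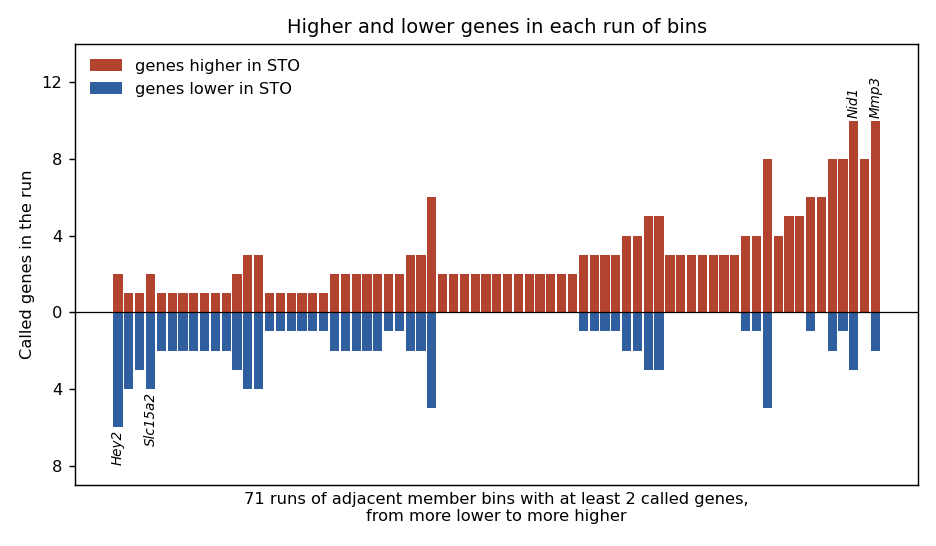
Number of genes called higher in STO cells (red, upward) and lower (blue, downward) in each of the 71 runs of adjacent member bins with at least 2 called genes, ordered by the excess of higher over lower calls. The run of Mmp3 (10 higher, 2 lower) stands at the right end and the run of Hey2 (2 higher, 6 lower) at the left, and 25 runs have no blue part.

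The excess of higher over lower calls was largest, at 8, in chr9:4400001-8000000 and in chr19:34000001-34800000. The chromosome 9 locus holds the caspase and metalloproteinase clusters and the inhibitors of apoptosis Birc2 and Birc3, and had 10 genes higher and 2 lower. Casp4, the caspase of the noncanonical inflammasome, had 0.0881 and 0.0805 FPKM in NSCs and 71.1, 66.8 and 78.1 FPKM in STO cells (log2 difference 6.07, SE 0.076, limma adjusted p = 8.7e-09). Casp12 beside it rose from 1.22 and 1.2 FPKM to 71.5, 73.9 and 73.3 FPKM. Casp1, on their other side, 1568 bp from Casp4, went the other way, from 3.7 and 3.57 FPKM in NSCs to 0.557, 0.563 and 0.596 FPKM in STO cells, a log2 difference of -1.56. At the far end of the locus Yap1, the coactivator of the Hippo pathway, rose from 15.2 and 15.7 FPKM to 56.5, 58.2 and 55.4 FPKM, and was taken up after its values were seen. Of the 9 further metalloproteinase genes of the locus beside Mmp3, Mmp10 and Mmp1b were higher and the others were not tested.

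In chr19:34000001-34800000 all 8 called genes were higher. Acta2, the smooth muscle actin gene, had 2.06 and 2.09 FPKM in NSCs and 46.3, 46.2 and 51.2 FPKM in STO cells, 23.1 times the NSC mean (log2 difference 3.99, SE 0.064, limma adjusted p = 2.0e-08). Myh11, the smooth muscle myosin gene and also a member, stayed under 0.2 FPKM in every library. Fas, the death receptor gene next to Acta2, had 3.21 and 3.01 FPKM in NSCs and 55.4, 54.5 and 59.3 FPKM in STO cells, 18.1 times the NSC mean. Ifit1, an interferon-induced gene with near copies beside it, rose from 0.0844 and 0.088 FPKM to 5.81, 5.72 and 7.07 FPKM, and Ifit2, Ifit3 and Ifit3b were higher too.

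The collagen locus chr1:44000001-46000000 had 8 genes higher and 1 lower, and beside the collagens it holds Gulp1, an adaptor gene for the uptake of dying cells, with 0.545 and 0.819 FPKM in NSCs and 10.7, 12.5 and 11.1 FPKM in STO cells. Gulp1 overlaps 4930521E06Rik, which was listed at 0.0489 FPKM or less in every library. The locus chr13:12400001-14800000, with Prl2c2 and Nid1, had 10 higher and 3 lower, on the chromosome where the letters go against gene density. The locus chr4:3600001-8000000 had 8 higher and 2 lower, and it holds the member with the largest fall. Lyn, a Src-family kinase gene, had 59.5 and 67.6 FPKM in NSCs and 0.0131, 0 and 0 FPKM in STO cells (log2 difference -6.00, SE 0.068, limma adjusted p = 6.7e-09). Its locus overlaps that of 6330407A03Rik, and fragments of the overlap cannot be assigned without knowing how strand was counted. In the same locus Plag1, a zinc finger transcription factor gene, had 3.61, 3.71 and 3.04 FPKM in STO cells and at most 0.0137 FPKM in NSCs, and Chchd7, which starts close to it on the other strand, rose from 2.13 and 2.9 FPKM to 23.5, 20.1 and 28.0 FPKM.

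Fewer loci opposed the switch. In chr10:29600001-31600000, 6 genes were lower and 2 higher. Tpd52l1 there had 7.14 and 7.55 FPKM in NSCs and 0, 0.0319 and 0.024 FPKM in STO cells, a log2 difference of -3.03. Its locus overlaps that of Supt4b, so the assignment of fragments is uncertain. Hey2, a repressor that acts below Notch in neural progenitors, had 1.57 and 1.44 FPKM in NSCs and at most 0.0175 FPKM in STO cells, a log2 difference of -1.31. That size depends on the scale for a gene this low, at -3.88 with a pseudocount of 0.1 and -0.66 after quantile normalization. Hddc2 fell from 27.9 and 28.3 FPKM to 11.9, 10.9 and 12.1 FPKM.

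In chr16:56000001-57200000, 4 genes were lower and 1 higher. Tfg, which acts in export from the endoplasmic reticulum, fell from 66.2 and 69.2 FPKM to 35.8, 37.1 and 37.6 FPKM, and the SUMO protease gene Senp7 from 11.2 and 11.6 FPKM to 6.29, 6.78 and 6.41 FPKM. Tmem45a was the exception, at 0.153 and 0.0323 FPKM in NSCs and 16.1, 16.8 and 18.5 FPKM in STO cells. When only the transcript with the highest level was kept per gene, the log2 difference of Senp7 was -0.10 and no longer passed.

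In chr16:36000001-36800000, 4 genes were lower and 2 higher. Slc15a2, a peptide transporter gene, fell from 14.6 and 13.9 FPKM to 2.18, 2.21 and 2.27 FPKM (log2 difference -2.24, SE 0.053, limma adjusted p = 1.1e-07), and Ccdc58 from 39.1 and 36.1 FPKM to 11.7, 12.2 and 12.5 FPKM. The cystatin gene Stfa3 between them was listed at 0 in NSCs and at 1.94, 1.69 and 1.84 FPKM in STO cells, and near copies of it in the same bins were not tested. In the bin chr4:59600001-60000000, 3 genes were lower and 1 higher. The lower ones had log2 differences of -0.88 (E130308A19Rik), -0.82 (Hsdl2) and -0.42 (Inip), and the sorting nexin gene Snx30 was higher by 0.48. The annotated start of Hsdl2 lies outside this bin, and it is a member through its midpoint. In chr10:52800001-56800000, which holds Man1a, 4 genes were lower and 3 higher, among the lower Fam184a at a log2 difference of -1.69 and Msl3l2 at -1.68. Msl3l2 overlaps Tbc1d32, which was higher by 0.36, so the assignment of fragments between this pair is uncertain.

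The other large falls among the members were the following. Bmerb1 had 50.1 and 59.4 FPKM in NSCs and was listed at 0 in all STO libraries, and Ifitm7 overlaps it. The annotated start of Bmerb1 lies outside the member bins, and it is a member through its midpoint. Bbip1, whose product belongs to the BBSome of the primary cilium, had 11.6 and 19.7 FPKM in NSCs and was listed at 0 in all STO libraries, and it overlaps Pdcd4 and Shoc2. The overlapping gene Shoc2 rose from 9.42 and 11.9 FPKM to 31.0, 34.6 and 33.5 FPKM, so the assignment of fragments between the pair is uncertain. Enpp2, the gene of autotaxin, which makes lysophosphatidic acid, fell from 16.9 and 18.7 FPKM to 0.293, 0.466 and 0.428 FPKM, with an NSC mean 44.9 times that of STO cells (log2 difference -3.75, SE 0.077, limma adjusted p = 5.6e-08). Arhgef4, a guanine nucleotide exchange factor gene, fell from 24.9 and 26.7 FPKM to 1.89, 1.78 and 1.71 FPKM. In the chromosome 9 locus Gria4, an AMPA receptor subunit gene, fell from 10.9 and 11 FPKM to at most 0.0271 FPKM. Nt5e, the gene of the nucleotidase CD73, fell from 7.71 and 8.07 FPKM to at most 0.0756 FPKM, and Tram1l1 from 11.8 and 12 FPKM to 1.59, 1.53 and 1.52 FPKM.

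Neighbouring genes within a locus could differ in direction. Of 220 pairs of consecutive tested genes that were both called, 92 had opposite calls, and in 16 of these both genes had a log2 difference of at least 1 in size. Within single bins the share of opposite pairs was 39.5% of 147 in the member bins and 42.7% of 2882 over all listed bins of these autosomes, so the share in the member bins lay near the background. The pairs named here were taken from those 16 after their values were seen. Nefl and Nefm, the light and medium neurofilament genes, lie 31808 bp apart on chromosome 14. Nefl had 0.763 and 0.609 FPKM in NSCs and 17.9, 19.5 and 21.2 FPKM in STO cells (log2 difference 3.60, SE 0.084, limma adjusted p = 1.0e-07). Nefm had 2.86 and 2.62 FPKM in NSCs and 0.0137, 0.0599 and 0.027 FPKM in STO cells (log2 difference -1.86, SE 0.050, limma adjusted p = 1.9e-07). The groups of libraries did not overlap for either gene, as was so for 358 of the 390 tested members and 11056 of all 12293 genes tested. Casp1 and Casp4 form such a pair, as do Tbx18 and Nt5e, 596352 bp apart, and Fam184a and Man1a, 155124 bp apart.

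**Figure D5:**
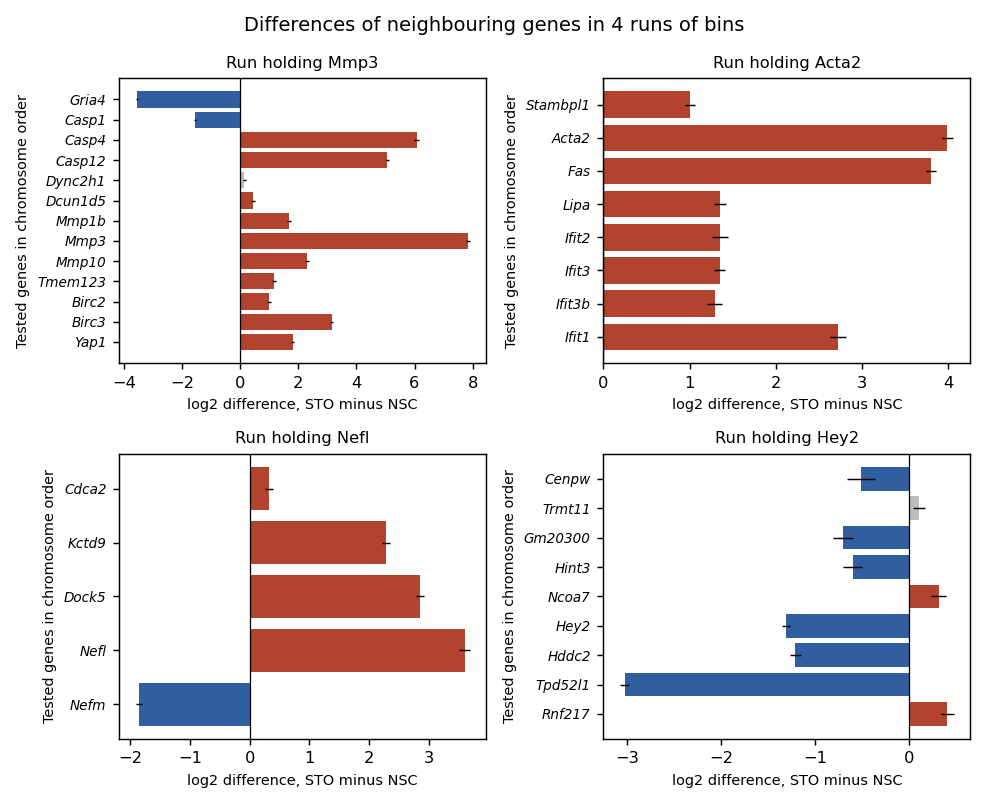
Log2 difference (STO minus NSC, log2(FPKM + 1) scale) of the tested genes of 4 runs of member bins in chromosome order, with bars for the limma standard error, in red where a gene was higher in STO cells, blue where lower and grey without a call. The run of Acta2 holds 8 higher genes and no lower one, the run of Hey2 has 6 lower genes, and in the other 2 runs neighbours such as Casp1 (-1.56) and Casp4 (6.07), or Nefl (3.60) and Nefm (-1.86), differ in direction.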

How the data were processed

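RNA libraries of 2 NSC and 3 STO samples were made with a stranded mRNA kit and sequenced as paired ends. The authors aligned reads with HISAT2 (4.8.2 in the submitters' processing notes) to mm9 and deposited FPKM per RefSeq transcript from Cufflinks 2.2.1. Whether counting used strand is not given in the sources used here. Compartment letters are those the study lists for 400-kb bins, called from Hi-C with 2 replicates per cell type.

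Symbols were matched for 39946 of 40201 transcripts, and FPKM was summed over transcripts of 1 symbol with overlapping loci. Genes with a mean of at least 1 FPKM in either group were compared with limma 3.58.1 (lmFit, eBayes with a trend) in R 4.3.3 on log2(FPKM + 1), a scale that understates the change of low genes. P-values were adjusted by Benjamini-Hochberg over all 12293 genes, with 0.05 as threshold. On simulated data of that size 94 of 100 changes of 1 log2 unit and 99 of 100 of 2 units were recovered, with 8 false calls. Few genes were changed there, whereas in the data 41.9% of the genes tested were called higher and 43.7% lower. The simulated number of false calls therefore does not carry over to the data. Depth was inferred from the deposited confidence intervals, taking a half-width as 2 SDs of a Poisson count. The members and gene lists were chosen with earlier results of these data known.

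Named genes were the 14 members that rose most and the 10 that fell most among those whose libraries did not overlap, up to 3 called genes of the 5 loci that most followed and the 5 that most opposed the switch, the 5 highest genes on in each cell type only, and at most 3 examples per list. Other names are marked as chosen after their values were seen. Promoter windows were the 250 bases before the RefSeq transcript start, read from the mm9 genome. For the 390 tested members, 386 had an annotated strand. Alternatives varied the pseudocount, filter, normalization, block, gene assignment, bins and libraries. Some items are not reported here.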

Additional observations from a re-analysis of the deposited data

How the results depend on the processing

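The counts of members higher (229) and lower (115) in STO cells stayed within 1.5 times under every alternative run except the added fold, where a log2 difference of at least 1 left 144 and 43. Leaving out 1 library at a time gave 218 to 228 higher and 97 to 110 lower. The median log2 difference over the members, 0.44, was 0.53 with a pseudocount of 0.1, 0.51 after quantile normalization, 0.52 when the whole gene had to lie in the bins, and 0.0 without the filter on low values, where genes at 0 in all libraries enter. Quantile normalization moved the median of all genes from -0.023 to 0.037. Members on in STO cells only were 66 when under 0.5 FPKM sufficed in the other cell type. NSC and STO libraries with the same number did not deviate together (correlations 0.0075 and 0.061), and a replicate block, which the labels do not support as a pairing, gave 224 higher and 109 lower members. Over 45 named genes and 534 values under the alternatives, 1 call was lost and none changed direction: Senp7 at -0.10 with the highest transcript per gene. Sizes moved more than calls: the log2 differences of 17 of the 45 moved by over 1.5 times with a pseudocount of 0.1, 1 (Hey2) after quantile normalization and 2 with the highest transcript (Senp7, and Slc15a2 at -3.66). Depth limits genes near 0 most, and for those listed at 0 in one group no fold is given.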
